A study of Saccharomyces cerevisiae with 25 samples.

Results

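The 37 genes described here are nuclear genes for subunits of the mitochondrial respiratory chain and ATP synthase of the yeast *Saccharomyces cerevisiae*. They were chosen by name, as subunits of these complexes. The set holds 4 genes of complex II (*SDH1* to *SDH4*), 9 of complex III (*COR1*, *QCR2*, *QCR6* to *QCR10*, *CYT1* and *RIP1*), the 2 cytochrome c genes (*CYC1* and *CYC7*), 9 of complex IV and 13 of ATP synthase. All 37 were among the 6713 genes listed in the count table and among the 5713 genes tested.

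RNA was sequenced from 25 yeast cultures of 5 haploid strains, with 5 separate cultures per strain, grown in minimal medium with glucose and harvested while still dividing. All strains descend from BY4741 (MATa *his3Δ1 leu2Δ0 met15Δ0 ura3Δ0*), and each is a strain engineered by CRISPR-Swap, which replaces a marker cassette with an allele. *RGT2(V539I)* carries a missense variant in the gene of a glucose sensor of the plasma membrane. Its control is YFA1131, in which the BY allele of *RGT2* had been put back in place of a deletion. *OAF1(L63S)* carries a missense variant in the gene of a transcription factor of fatty acid metabolism, and *OLE1(FAR)* carries the RM allele of a variant upstream of the fatty acid desaturase gene. Their control is YFA1130, a wild type from which a GFP tag on *FAA4* had been removed. Cells had been harvested in 3 batches, with 6 libraries from batch 1, 7 from batch 2 and 12 from batch 3. No library of *OLE1(FAR)* came from batch 1. Replicates are numbered by the batch of RNA isolation, and libraries are named by their labels.

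Respiration passes electrons from succinate through complex II, and from NADH through separate dehydrogenases, to ubiquinone. Complex III hands them on to cytochrome c, complex IV reduces oxygen with them, and ATP synthase uses the proton gradient that complexes III and IV build up. Budding yeast has no proton-pumping complex I. In this yeast most of the nuclear genes are known to be repressed by glucose and to be activated by the Hap2/3/4/5 complex, which binds CCAAT boxes.

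Total counts ran from 9216531 to 14644996 per library. The tested genes of a cells included *STE2*, *STE6* and *BAR1*, and the 5 a cell markers summed to between 1988 and 2340 CPM, whereas *MFA1* and *MFA2* were listed at 0 in every library. The alpha cell markers summed to at most 55.1 CPM, and the 3 genes deleted in BY4741 (*LEU2*, *URA3* and *MET17*) had no count. Levels are CPM, counts per 1e6 counts after TMM normalisation.

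For 2 libraries, genes outside the respiratory chain went against the label. *MGA2*, the gene of an activator of *OLE1*, was at 289 CPM in the library labelled *OAF1(L63S)* replicate 5, against 101 to 128 CPM in the other 4 libraries of that strain and 281 to 315 CPM in 4 libraries of *OLE1(FAR)*. The library labelled *OLE1(FAR)* replicate 2 had 119 CPM. *POX1*, the gene of peroxisomal acyl-CoA oxidase, was at 1.58 CPM in the library labelled *OAF1(L63S)* replicate 5 and at 17 to 22.8 CPM in the other 4. In the library labelled *OLE1(FAR)* replicate 2 it was at 28.4 CPM, against 0.419 to 2.00 CPM in the others. These genes were chosen after their values had been seen. Both libraries stayed under their labels, and counts of calls are given with and without them.

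CCAAT boxes upstream of these genes were looked up because the Hap complex is their known common activator. Within 500 bases upstream of the start codon, 16 of the 37 genes held the motif ACCAATNA, or TNATTGGT for the other strand. That was 43.2% of them, against 8.59% of 6006 nuclear genes searched in the same way. The shorter motif CCAAT, which every match of the longer motif contains, was searched on both strands and found upstream of 34 of the 37, or 91.9%, against 62.4% of all. Matches to the longer motif were found in 5 of 9 genes of complex IV, 7 of 13 of ATP synthase, 3 of 9 of complex III and 1 of 4 of complex II, and in neither cytochrome c gene. The matches upstream of genes that differed between strains are shown here, 5′ to 3′ on the strand of the gene, with the motif in capitals and 20 bases on each side, from the sacCer3 genome. The window of *COR1* lies at chrII:135840-135887 on the minus strand and that of *QCR7* at chrIV:1496703-1496750, also on the minus strand. That of *RIP1* is chrV:106992-107039, that of *COX6* chrVIII:209468-209515 and that of *COX13* chrVII:144575-144622, all on the plus strand. Those of *ATP4* (chrXVI:408907-408954) and *TIM11* (chrIV:1112411-1112458) are on the minus strand.
COR1: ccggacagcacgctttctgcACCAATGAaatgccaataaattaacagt
QCR7: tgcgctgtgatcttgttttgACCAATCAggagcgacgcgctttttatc
RIP1: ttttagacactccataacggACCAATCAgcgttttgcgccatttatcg
COX6: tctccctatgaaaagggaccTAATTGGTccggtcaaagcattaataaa
COX13: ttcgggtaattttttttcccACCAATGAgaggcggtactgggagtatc
ATP4: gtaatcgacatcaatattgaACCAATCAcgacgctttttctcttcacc
TIM11: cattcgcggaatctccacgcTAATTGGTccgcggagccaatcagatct

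The matches of *COX6* and *TIM11* are in the reverse orientation and the other 5 in the forward one. Between the motif and the start codon lie 137 bases in *TIM11* and 343 bases in *COR1*. A match is a run of letters and says nothing of binding in these cells, and neither does the lack of a match.

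Levels spanned a wide range within the set. Per kb of coding sequence, the F1 subunit genes *ATP2* and *ATP1* were highest, with means over the 25 libraries of 650 and 537 CPM per kb. *QCR6*, the hinge protein of complex III, followed at 370 CPM per kb. At the other end was *CYC7*, the minor isoform of cytochrome c, at 1.78 CPM per kb, the 2.96th percentile of all tested genes. Its lowest count in a library was 2. The next lowest was *SDH1*, the flavoprotein of complex II, at 32.9 CPM per kb. None of the 37 genes had a count that was not whole, which is what divided reads would leave.

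**Figure D1:**
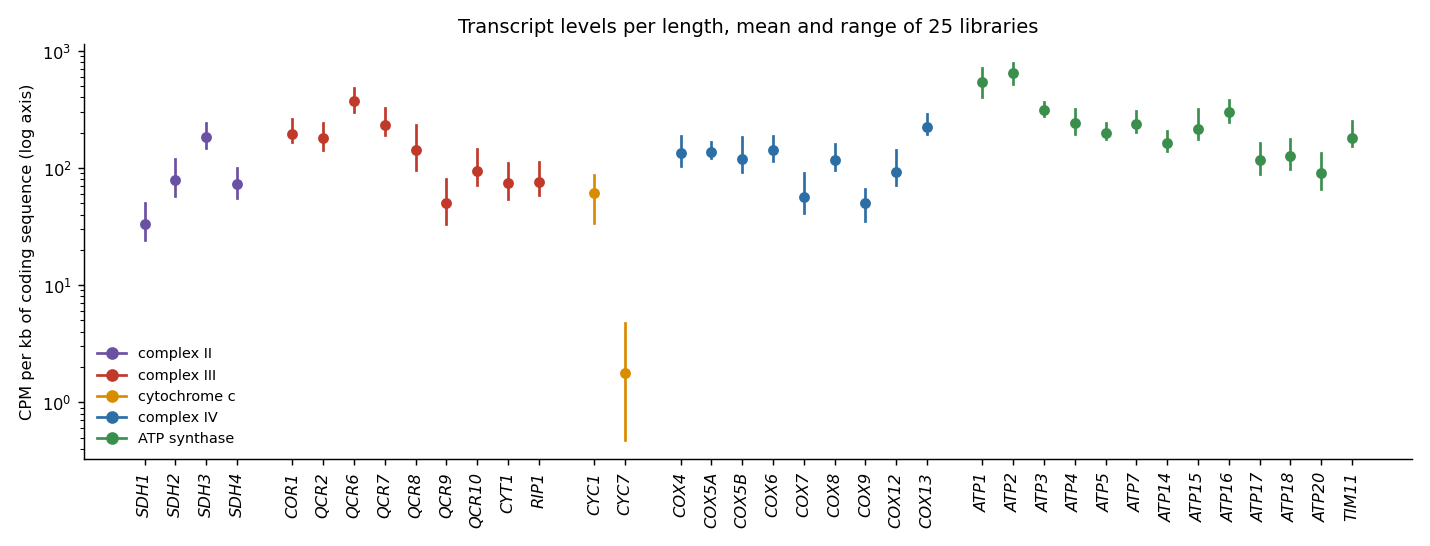
Level of each gene in CPM per kb of coding sequence on a log axis, with points at the mean of 25 libraries and bars from the lowest to the highest library. *CYC7* (mean 1.78) lies far below the other 36 genes, and *ATP2* (650) and *ATP1* (537) lie at the top.

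The genes varied together across libraries. With strain means removed, the correlation of log2 levels over the 25 libraries was 0.699 in the median over the 666 gene pairs and -0.00158 over pairs of all genes with a count in every library. Within complexes the median lay between 0.677 (the single pair of cytochrome c genes) and 0.831 (complex II). *QCR7* followed the median of the other 36 genes most closely (0.963) and *ATP1* least (0.311), with *ATP2* next lowest (0.425). These correlations describe libraries that share harvest batches and carry no test.

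*RGT2(V539I)* was compared with YFA1131 to see how the glucose sensor variant acts on other genes. In the *RGT2(V539I)* strain, 16 of the 37 respiratory chain genes rose at an FDR of 10% and none fell. Across all 5713 genes tested, 1.07% differed in either direction and 0.858% rose. The median log2 fold change of the 37 was 0.25, against -0.0078 for all genes, and 35 of 37 were above 0. At an unadjusted p under 0.05, 30 of the 37 were higher and none lower. The data are from whole cultures, so that more RNA per cell and more cells with the RNA cannot be told apart.

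The part of the chain that takes electrons to oxygen held most of these genes. In complex III 7 of 9 genes rose (median log2 fold change 0.31), in complex IV 5 of 9 (0.27), in complex II 2 of 4 (0.22) and in cytochrome c 1 of 2. In ATP synthase 1 of 13 rose (0.18). Whether complexes differed from each other was not tested. Of the 16 genes that rose, 5 held the ACCAATNA motif, and of the 21 others 11 did. The median log2 fold change was 0.24 for the 16 genes with that motif and 0.26 for the 21 without it.

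**Figure D2:**
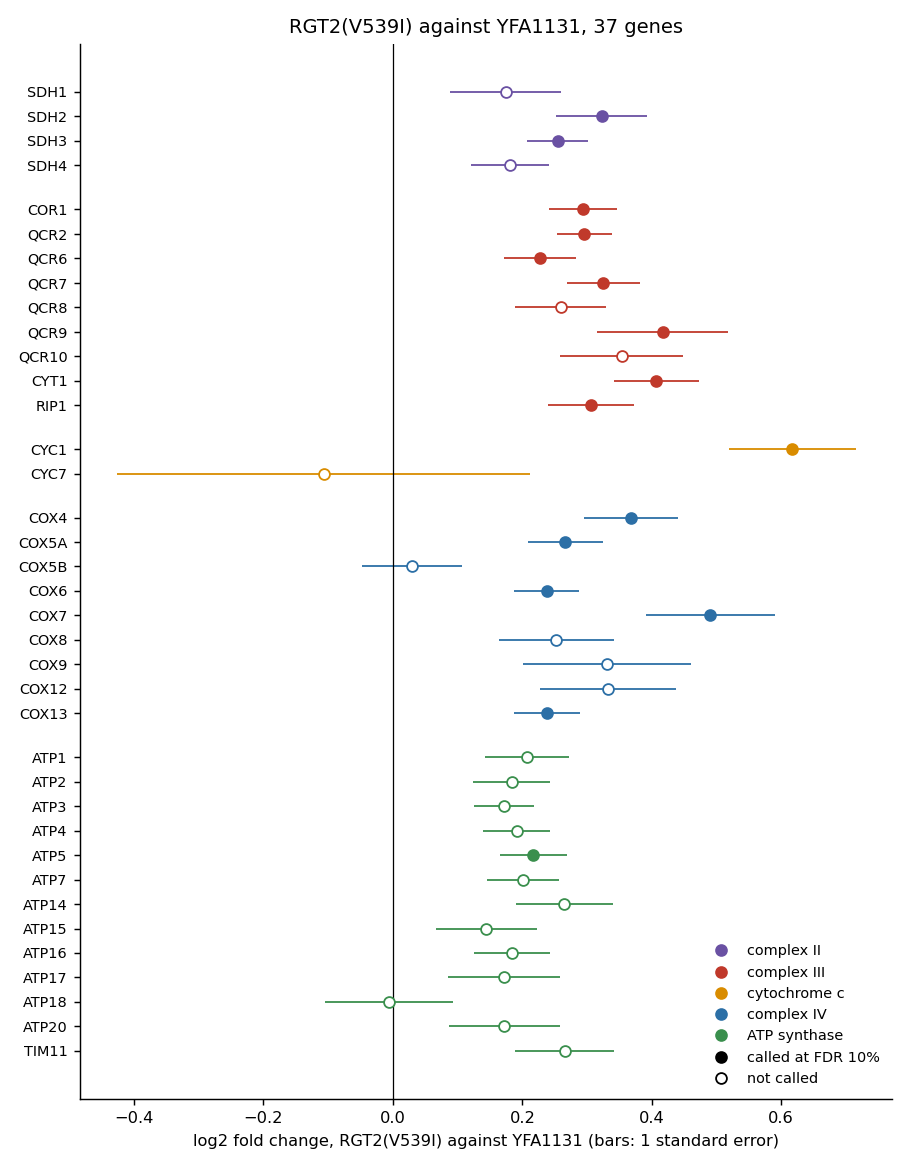
Log2 fold change of each of the 37 genes in *RGT2(V539I)* against YFA1131, with bars of 1 standard error, grouped by complex and filled where the gene passed an FDR of 10%. All but *CYC7* and *ATP18* lie above 0, and *CYC1* lies highest at 0.62.

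In complex III the core proteins, the haem protein and the iron-sulphur protein rose together. *QCR2* (YPR191W), a core protein, was at 203, 185, 215, 268 and 224 CPM in replicates 1 to 5 of *RGT2(V539I)*, and at 158, 165, 176, 204 and 218 CPM in those of YFA1131. The strains overlapped, yet each replicate of *RGT2(V539I)* was above the YFA1131 replicate of the same number. The log2 fold change was 0.30 (SE, the standard error, 0.042, edgeR adjusted p = 0.00185 by the quasi-likelihood method after Benjamini and Hochberg). *CYT1* (YOR065W), the gene of cytochrome c1, was at 72.1, 66.6, 68.3, 102 and 76.9 CPM in *RGT2(V539I)* and at 50.5, 54.5, 52.8, 71.6 and 80.3 CPM in YFA1131. It was higher in 4 of 5 pairs, with a log2 fold change of 0.41 (SE 0.066, edgeR adjusted p = 0.00582). Replicate 5, the pair in which it was lower, came from harvest batch 2 in *RGT2(V539I)* and batch 1 in YFA1131. *COR1*, the other core protein, averaged 303 ± 33.5 CPM in *RGT2(V539I)* and 249 ± 19.8 CPM in YFA1131 (SD, n = 5 each), for a log2 fold change of 0.29 (adjusted p = 0.0131 in edgeR). *RIP1*, the Rieske protein, averaged 54.9 ± 10.7 CPM in *RGT2(V539I)* and 45.1 ± 5.87 CPM in YFA1131 (SD, n = 5 each), for a log2 fold change of 0.31 (adjusted p = 0.0457 in edgeR).

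*QCR7* (YDR529C), a small subunit, was at 88.7, 89.7, 121, 118 and 100.1 CPM in *RGT2(V539I)* and at 72.6, 73.0, 82.6, 81.6 and 83.2 CPM in YFA1131. The groups did not overlap. Its log2 fold change was 0.32 (SE 0.057, edgeR adjusted p = 0.0117). *QCR6* averaged 185 ± 21.4 CPM in *RGT2(V539I)* and 159.8 ± 9.34 CPM in YFA1131 (SD, n = 5 each), and *QCR9* averaged 11.7 ± 1.72 CPM in *RGT2(V539I)* and 8.41 ± 1.49 CPM in YFA1131 (SD, n = 5 each). Both passed the FDR, at log2 fold changes of 0.23 and 0.42, but kept their call in only 2 and 1 of the 10 fits without 1 library of these strains. *QCR8* (0.26) and *QCR10* (0.35) had adjusted p-values of 0.137 and 0.129 in edgeR and were not called.

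Of the 2 cytochrome c genes, *CYC1* rose and *CYC7* was not called. *CYC1* (YJR048W), the main isoform, was at 22.4, 21.4, 28.5, 24.7 and 21.8 CPM in *RGT2(V539I)* and at 11.1, 12.7, 16.3, 19.4 and 19.6 CPM in YFA1131. All *RGT2(V539I)* libraries were above all YFA1131 libraries, and the log2 fold change of 0.62 (SE 0.098, edgeR adjusted p = 0.00498) was the largest of the 37. YFA1130 overlapped both strains, at 23.3, 16.3, 20.4, 18.4 and 19.6 CPM. *CYC7* (YEL039C) was at 0.278, 0.162, 1.06, 1.38 and 0.792 CPM in *RGT2(V539I)* and at 0.447, 0.177, 0.38, 1.64 and 1.19 CPM in YFA1131. These overlapped throughout, with a log2 fold change of -0.11 (SE 0.32, edgeR adjusted p = 0.996). The difference between both genes was not tested.

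In complex IV the genes that rose were *COX4*, *COX5A*, *COX6*, *COX7* and *COX13*. *COX7* (YMR256C) was at 11.03, 11.01, 11.8, 12.6 and 11.2 CPM in *RGT2(V539I)* and at 7.60, 7.78, 8.53, 7.63 and 8.39 CPM in YFA1131. These groups were well apart, with a log2 fold change of 0.49 (SE 0.0999, edgeR adjusted p = 0.0332). In YFA1130, however, *COX7* was at 10.9, 10.3, 11.4, 8.92 and 9.86 CPM, within reach of *RGT2(V539I)*. *COX4* averaged 71.8 ± 9.68 CPM in *RGT2(V539I)* and 55.2 ± 4.90 CPM in YFA1131 (SD, n = 5 each), for a log2 fold change of 0.37 (adjusted p = 0.029 in edgeR). *COX6* averaged 71.3 ± 3.77 CPM in *RGT2(V539I)* and 58.9 ± 5.95 CPM in YFA1131 (SD, n = 5 each), without overlap, at a log2 fold change of 0.24 (adjusted p = 0.045 in edgeR). *COX13*, a subunit that is not catalytic, averaged 97.6 ± 12.1 CPM in *RGT2(V539I)* and 79.7 ± 3.92 CPM in YFA1131 (SD, n = 5 each), and its log2 fold change was likewise 0.24 (adjusted p = 0.0454 in edgeR).

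*COX5A* and *COX5B* encode alternative forms of one subunit, of which *COX5A* is known as the form used in air and *COX5B* as the form used when oxygen is scarce. *COX5A* was at 65.6, 62.3, 77.1, 76.0 and 69.3 CPM in *RGT2(V539I)* and at 57.2, 55.7, 56.1, 56.9 and 62.5 CPM in YFA1131. Only replicate 5 of YFA1131 reached the level of the lowest *RGT2(V539I)* library, and the log2 fold change was 0.27 (SE 0.058, edgeR adjusted p = 0.0457). *COX5B* was at 54.5, 42.8, 68.1, 64.7 and 49.5 CPM in *RGT2(V539I)* and at 46.5, 42.1, 51.7, 55.5 and 66.7 CPM in YFA1131, with overlapping groups and a log2 fold change of 0.029 (SE 0.077, edgeR adjusted p = 0.994).

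**Figure D3:**
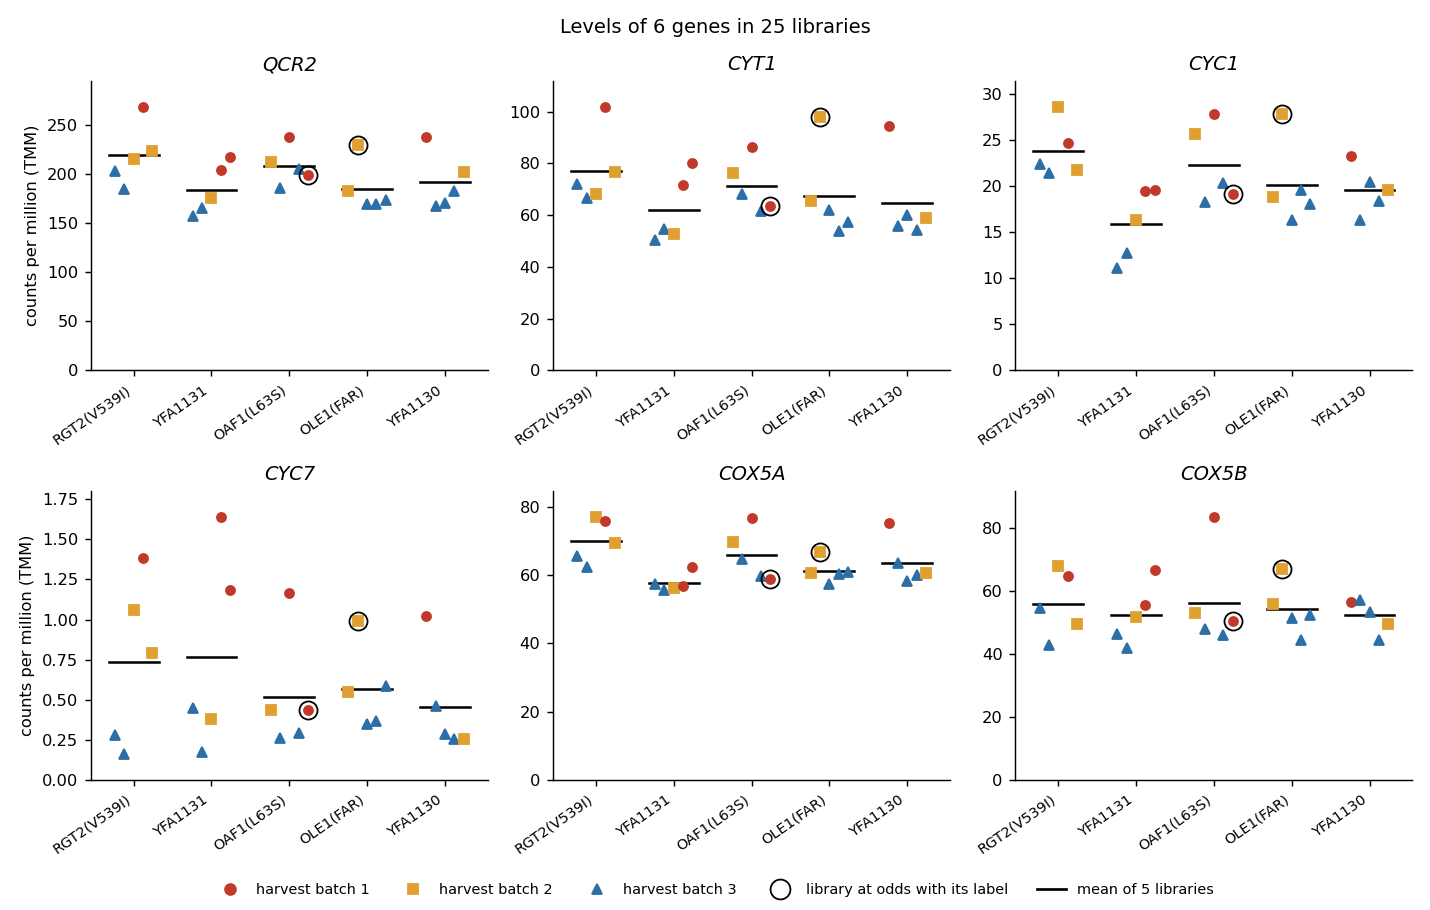
CPM of *QCR2*, *CYT1*, *CYC1*, *CYC7*, *COX5A* and *COX5B* in each library by strain, with symbols for the harvest batch, lines at the mean of 5 libraries and rings around the 2 libraries that went against their labels. *CYC1* is above all YFA1131 libraries in all 5 of *RGT2(V539I)*, and *CYC7* follows the harvest batch.

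In complex II *SDH2*, the iron-sulphur subunit, and *SDH3*, a membrane anchor, rose. *SDH3* (YKL141W) was at 113, 112, 138, 133 and 114 CPM in *RGT2(V539I)* and at 94.1, 91.3, 102, 104 and 109 CPM in YFA1131, without overlap (log2 fold change 0.25, SE 0.047, edgeR adjusted p = 0.0168). *SDH2* averaged 74.5 ± 13.1 CPM in *RGT2(V539I)* and 57.7 ± 7.97 CPM in YFA1131 (SD, n = 5 each), for a log2 fold change of 0.32 (adjusted p = 0.0457 in edgeR). *SDH1* (0.17) and *SDH4* (0.18) were not called.

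In ATP synthase *ATP5*, the subunit that joins the stalk to the F1 head, was the gene called, at 139 ± 12.7 CPM in *RGT2(V539I)* and 118 ± 6.80 CPM in YFA1131 (SD, n = 5 each) and a log2 fold change of 0.22 (adjusted p = 0.072 in edgeR). The other 12 ran from -0.0066 (*ATP18*) to 0.27 (*TIM11*), and 9 of the 13 were higher at an unadjusted p under 0.05. *ATP14*, a stalk subunit, was not called at a log2 fold change of 0.27 (adjusted p = 0.167 in edgeR), although all 5 of its *RGT2(V539I)* libraries were above all 10 wild-type libraries. It was the 1 gene of the 37 for which this held (0.105% of all tested genes). All *RGT2(V539I)* libraries were above all YFA1131 libraries for 9 of the 37 genes (0.98% of all tested genes).

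The difference was present in each harvest batch. By the ratio of mean CPM in *RGT2(V539I)* over YFA1131, 36 of 37 genes were higher in each of batches 1, 2 and 3, with median log2 ratios of 0.40, 0.28 and 0.20. These rest on 1 against 2, 2 against 1 and 2 against 2 libraries. Against YFA1130 the medians in the same batches were 0.23, 0.28 and 0.088, with 37, 36 and 26 of 37 genes higher. In batch 3 this held for 5 of 9 genes of complex IV. With both wild types as the control, 11 of the 37 rose (0.63% of all genes were called), *QCR2* at a log2 fold change of 0.25 (adjusted p = 0.00277 in edgeR) and *CYC1* at 0.44 (adjusted p = 0.0165), whereas *COX7* (0.31, adjusted p = 0.183) was not called. Without the 2 libraries that went against their labels, 28 of 37 rose, among them all 16, 9 of 9 genes of complex III and 9 of 13 of ATP synthase, and 1.82% of all genes were called. With harvest as the only batch term 5 rose (0.35% of all genes called), and with genotype alone none (24 at an unadjusted p under 0.05, 0.07% of all genes called). Leaving out single libraries gave 5 without YFA1131 replicate 4 and 6 without *RGT2(V539I)* replicate 4. It gave 7 without YFA1131 replicate 5 and 8 without *RGT2(V539I)* replicate 2, with 0.262% to 0.42% of all genes called. *COR1*, *QCR2*, *QCR7*, *CYT1* and *CYC1* kept their call in all 10 such fits. *SDH3* and *COX4* kept it in 8, *COX13* in 7, and *SDH2*, *COX7* and *ATP5* in 6. *RIP1* and *COX5A* kept it in 5, *COX6* in 4, *QCR6* in 2 and *QCR9* in 1.

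**Figure D4:**
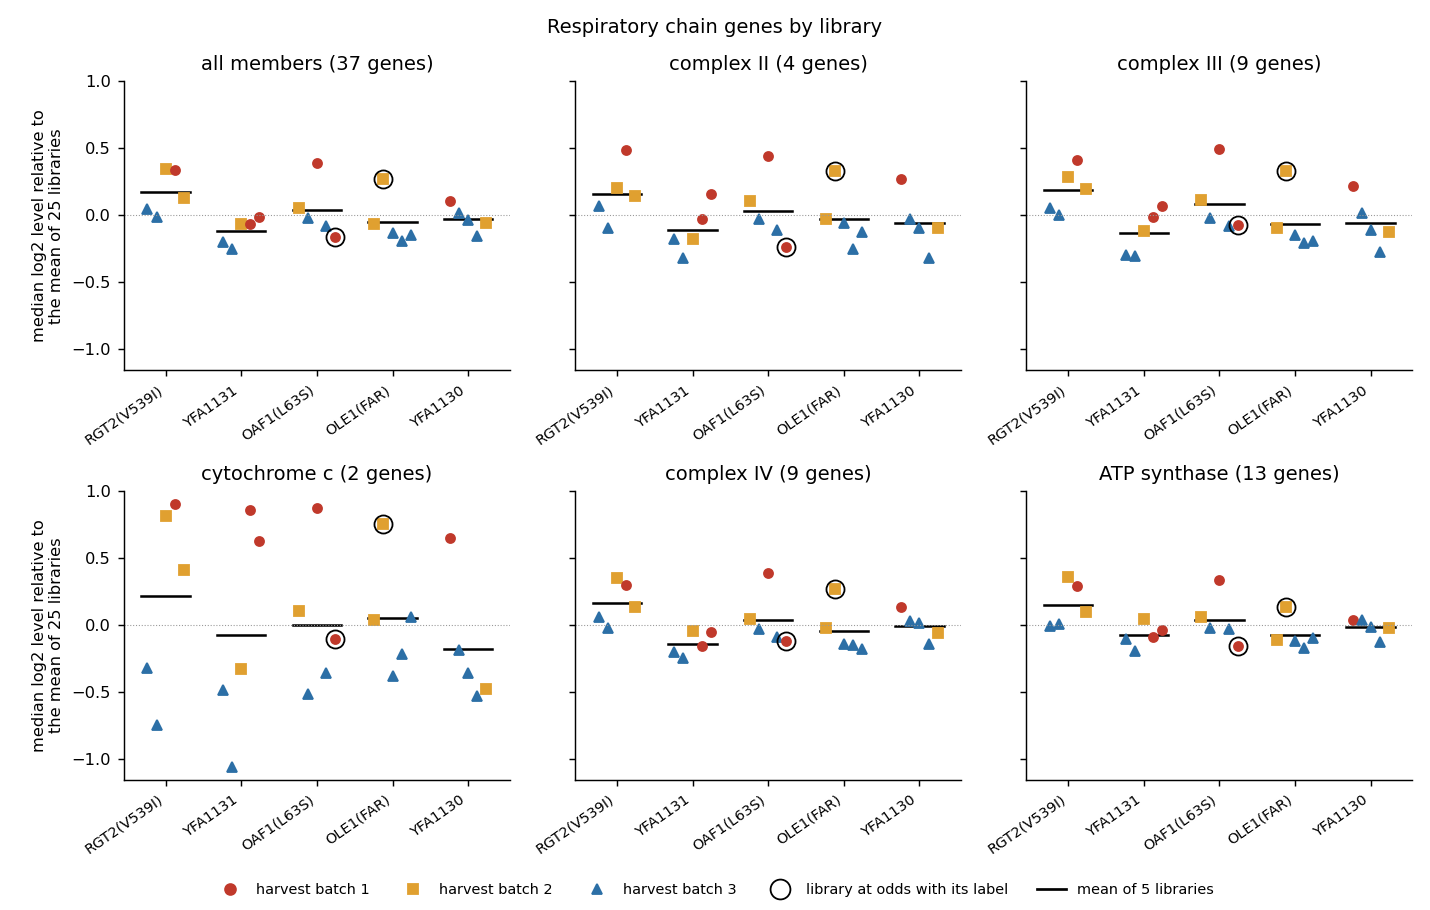
Median over the genes of each complex of the log2 level relative to the mean of 25 libraries, per library and strain, with symbols for the harvest batch, lines at strain means and rings around the 2 libraries that went against their labels. Over all 37 genes the *RGT2(V539I)* libraries run from -0.010 to 0.35 and the YFA1131 libraries from -0.25 to -0.011.

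Other genes of the pathway were counted in the same way. Of 90 listed genes for assembly factors, dehydrogenases, haem and ubiquinone synthesis, regulators and mitochondrially encoded subunits, 84 were tested and 3 rose in *RGT2(V539I)* against YFA1131, with a median log2 fold change of 0.065. Of all genes tested, 0.858% rose in the same fit. Without the 2 libraries in doubt 6 rose, among them these 3, where 1.82% of all genes were called. The 3 were *INH1*, the inhibitor of ATP synthase (log2 fold change 0.53, adjusted p = 0.072 in edgeR), *COX17*, a copper chaperone for complex IV (0.42, adjusted p = 0.0835), and *NDI1*, the internal NADH dehydrogenase (0.29, adjusted p = 0.0975). None of 5 *HAP* regulators was called. *HAP4*, the regulatory subunit of the Hap complex, had a log2 fold change of 0.0091 (SE 0.11, edgeR adjusted p = 1). Only 2 of 7 mitochondrially encoded subunits had a count in every library, and neither was called. The libraries were made from poly(A) RNA.

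The wild types themselves were compared to show how far strains without a variant differ. No respiratory chain gene was called in YFA1131 against YFA1130, where 0.158% of all genes were. By DESeq2 none was called either. At an unadjusted p under 0.05 in edgeR, 13 of the 37 were lower in YFA1131 and none higher, and the median log2 fold change was -0.095 against 0.0029 for all genes. The lowest were *COX7* (-0.35, SE 0.094, edgeR adjusted p = 0.203) and *CYC1* (-0.35, SE 0.093, adjusted p = 0.203). In complex IV all 9 values were below 0. Without the 2 libraries that went against their labels, 6 genes fell in YFA1131 (*QCR2*, *QCR8*, *RIP1*, *CYC1*, *COX4* and *COX7*, by 0.13 to 0.42 on the log2 scale), and 1.24% of all genes were called. *HAP4* was higher in YFA1131 (0.35, adjusted p = 0.234 in edgeR, not called). The YFA1131 libraries serve in this comparison and in that with *RGT2(V539I)*, so the 2 are not independent.

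*OAF1(L63S)* was compared with YFA1130, and no respiratory chain gene was called (1.17% of all genes were). DESeq2 called none. The median log2 fold change was 0.075, with 35 of 37 above 0 and 6 at an unadjusted p under 0.05. The most shifted of complex III was *QCR7*, at 103, 92.9, 125, 80.5 and 76.1 CPM in *OAF1(L63S)* and 91.1, 92.6, 82.1, 77.0 and 79.6 CPM in YFA1130 (log2 fold change 0.18, adjusted p = 0.236 in edgeR). With both wild types as the control 7 were called higher, from *COX13* at 0.15 to *CYC1* at 0.36, and 2.47% of all genes were called. Without the 2 libraries in doubt, 2 were called higher, *QCR2* (0.14) and *QCR6* (0.17), and 1.54% of all genes were called. The ratio of mean CPM had medians of 0.061, 0.14 and 0.023 on the log2 scale in harvest batches 1, 2 and 3.

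*OLE1(FAR)* was compared with YFA1130, and again no respiratory chain gene was called, where 0.98% of all genes were. DESeq2 called none. The median log2 fold change was -0.0996 and 33 of 37 were below 0, with 7 lower at an unadjusted p under 0.05, of which 5 were of ATP synthase. This shift depended on the fit. The median was -0.011 without surrogate variables (16 of 37 above 0), -0.0064 in the 10 libraries of these strains alone and -0.057 without the 2 libraries in doubt (11 of 37 above 0). *QCR8* was lowest by p (log2 fold change -0.25, SE 0.071, edgeR adjusted p = 0.185), followed by *ATP4* (-0.18, adjusted p = 0.207). By the ratio of mean CPM the median was 0.15 in harvest batch 2, which holds the library labelled *OLE1(FAR)* replicate 2, and -0.067 in batch 3. Leaving out *OLE1(FAR)* replicate 2, *OLE1(FAR)* replicate 5 or YFA1130 replicate 1 each gave 1 call (0.735% to 1.17% of all genes called).

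The 2 strains edited in fatty acid genes were set against each other. In *OAF1(L63S)* against *OLE1(FAR)*, 5 of 37 genes rose and none fell, where 3.01% of all genes were called. The median log2 fold change was 0.18 (all genes -0.0041) and 36 of 37 were above 0. The genes called were *QCR2*, *QCR7* and *QCR8* of complex III and *ATP4* and *TIM11* of ATP synthase. *QCR2* averaged 208 ± 19.3 CPM in *OAF1(L63S)* and 185 ± 25.6 CPM in *OLE1(FAR)*, and *QCR7* averaged 95.5 ± 19.5 CPM in *OAF1(L63S)* and 85.3 ± 12.4 CPM in *OLE1(FAR)* (SD, n = 5 each), with log2 fold changes of 0.20 and 0.28. *QCR8*, a small subunit of complex III, was at 40.6, 45.8, 66.6, 31.96 and 29.2 CPM in *OAF1(L63S)* and at 36.7, 49.1, 38.0, 35.4 and 35.6 CPM in *OLE1(FAR)*. The levels overlapped, and *OAF1(L63S)* was higher in only 2 of 5 pairs, although the fitted log2 fold change was 0.38 (SE 0.082, edgeR adjusted p = 0.0119). Paired libraries share an RNA isolation batch but not always a harvest batch. *ATP4*, a stalk subunit, was at 185, 167, 233, 171 and 156 CPM in *OAF1(L63S)* and at 162, 199.5, 153, 151 and 154 CPM in *OLE1(FAR)* (log2 fold change 0.25, adjusted p = 0.0319 in edgeR). *TIM11*, a membrane subunit, was at 51.9, 53.4, 71.7, 53.8 and 46.6 CPM in *OAF1(L63S)* and at 45.2, 59.5, 47.9, 45.3 and 46.2 CPM in *OLE1(FAR)* (0.31, adjusted p = 0.0884 in edgeR). In all 5 genes called the highest library was *OAF1(L63S)* replicate 3, from harvest batch 1, a batch with no library of *OLE1(FAR)*. It had 238 CPM of *QCR2* and 125 CPM of *QCR7*.

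The median and these 5 calls depended on the fit. The median was 0.051 without surrogate variables (27 of 37 above 0, complex II at -0.034), 0.075 in the 10 libraries of both strains alone and 0.16 without the 2 libraries in doubt. None was called without surrogate variables (1 gene at an unadjusted p under 0.05) or in the 10 libraries of the 2 strains alone (none at that p), and without the 2 libraries that went against their labels 3 were called (2.27% of all genes). Leaving out *OAF1(L63S)* replicate 1 left 1, replicates 3 or 4 left 2, and replicate 5 left 3, whereas without replicate 2 there were 8. On the *OLE1(FAR)* side, 3, 8, 2, 3 and 6 were called without replicates 1 to 5 in turn. Over these 10 fits, 1.91% to 4.37% of all genes were called. Of the other pathway genes, *SDH5* rose (0.37, adjusted p = 0.00934 in edgeR) and *HEM13*, *HEM15*, *HAP1* and *HMG2* fell. *HMG2*, a sterol synthesis gene known from hypoxic cells, fell most, by 0.58 on the log2 scale (adjusted p = 0.000156 in edgeR), and *HAP1*, a haem-responsive activator, fell by 0.28. All 5 were also called without the 2 libraries in doubt, *HMG2* at a log2 fold change of -0.54 (adjusted p = 0.000649 in edgeR).

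*HEM15*, the last enzyme of haem synthesis, fell by 0.14 on the log2 scale in *OAF1(L63S)* (adjusted p = 0.0872 in edgeR) and rose by 0.17 in *OLE1(FAR)* (adjusted p = 0.0475), each against YFA1130. *HMG2* rose by 0.35 in *OLE1(FAR)* (adjusted p = 0.0143 in edgeR). Without the 2 libraries in doubt, both calls in *OLE1(FAR)* were lost (*HEM15* 0.16, adjusted p = 0.333, and *HMG2* 0.29, adjusted p = 0.158, in edgeR), *HEM15* kept its call in *OAF1(L63S)* (adjusted p = 0.0949), and *HMG2* was called there as well, lower by a log2 fold change of -0.25 (adjusted p = 0.0798). With all libraries no other gene of the 84 was called in either comparison, and none in YFA1131 against YFA1130. The log2 fold change of *HAP4* ran from -0.052 to 0.35 over the 7 comparisons, and it was called in none of them.

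Harvest batches were compared within the same fit. With 2 surrogate variables in the fit, 1 of 37 genes was called in harvest batch 1 against batches 2 and 3, where 1.49% of all genes were. This was *QCR8*, which fell by 0.50 on the log2 scale (SE 0.11, edgeR adjusted p = 0.0271), and the median of the 37 was -0.084. That direction did not hold. Without surrogate variables 20 genes were called, all higher in batch 1, with a median of 0.18, and 30.0% of all genes were called. With the surrogate variables kept and the 2 libraries in doubt left out, 23 were called, again all higher, with a median of 0.27 and 15.6% of all genes called. With both changes together, 29 of 37 were called higher in batch 1 (median 0.25, 37.8% of all genes called). *QCR8* then had log2 fold changes of 0.20, 0.17 and 0.32 in these 3 fits.

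The first surrogate variable followed harvest batch 1. It was between -0.38 and -0.23 in 5 of the 6 libraries of that batch and 0.17 in the sixth, the library labelled *OAF1(L63S)* replicate 5. In the library labelled *OLE1(FAR)* replicate 2 it was -0.22, lower than in any other library of batches 2 and 3. Over the 37 genes the median relative log2 level was -0.16 in the first of these libraries, against -0.068 to 0.39 in the other 5 of batch 1. The second had 0.27, against -0.19 to -0.061 in the other libraries of *OLE1(FAR)*. The edited bases themselves were not analysed here.

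**Figure D5:**
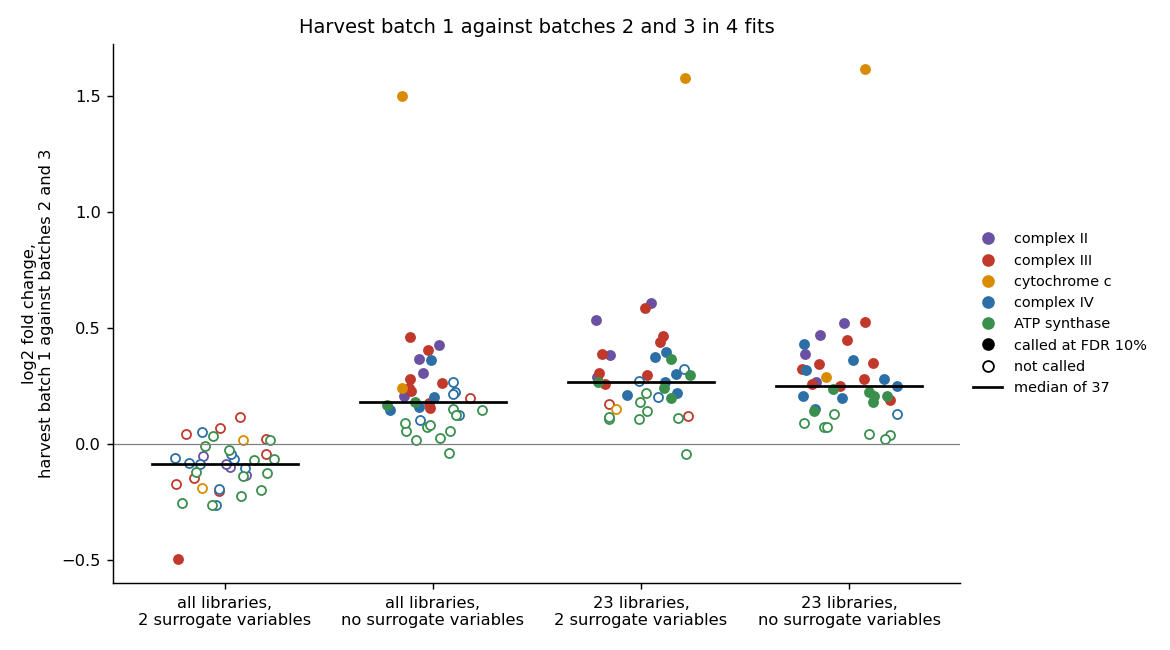
Log2 fold change of the 37 genes in harvest batch 1 against batches 2 and 3 in 4 fits, filled where the adjusted p was under 10%, with lines at the median. The median is -0.084 with all libraries and 2 surrogate variables and between 0.18 and 0.27 in the other 3 fits.

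The levels themselves showed which genes moved with the harvest. *CYC7* had the widest change, with a lowest, median and highest level of 0.438, 1.18 and 1.64 CPM in batch 1 (n = 6), 0.257, 0.547 and 1.06 CPM in batch 2 (n = 7) and 0.162, 0.291 and 0.587 CPM in batch 3 (n = 12). Its lowest library in batch 1 was the library labelled *OAF1(L63S)* replicate 5, and the other 5 were at 1.02 CPM or more, above all libraries of batch 3. The log2 fold change of batch 1 against the others was 0.018 with surrogate variables (adjusted p = 0.999 in edgeR), 1.50 without them (SE 0.31, adjusted p = 0.00217) and 1.58 without the 2 libraries in doubt (adjusted p = 0.0735). *SDH1*, chosen after its values were seen, averaged 79.4 ± 15.8 CPM in batch 1 (SD, n = 6), 66.3 ± 13.03 CPM in batch 2 (SD, n = 7) and 53.6 ± 4.22 CPM in batch 3 (SD, n = 12). Its log2 fold change was -0.0998 as fitted, 0.43 without surrogate variables and 0.61 without the 2 libraries. *CYT1* behaved alike, at 83.1 ± 14.2, 71.0 ± 14.8 and 59.7 ± 6.58 CPM (SD, n = 6, 7 and 12), with 0.069 as fitted and 0.59 without the 2 libraries.

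Calls were counted by complex in the fit without the 2 libraries, where 15.6% of all genes were called in either direction. Called higher in batch 1 were 4 of 4 genes of complex II (median log2 fold change 0.46) and 7 of 9 of complex III (0.31). In cytochrome c it was 1 of 2 (0.87), in complex IV 6 of 9 (0.27) and in ATP synthase 5 of 13 (0.18). Whether complexes differed from each other was not tested. Within strains the ratio of mean CPM of batch 1 over batches 2 and 3 was also taken. Its median over the 37 genes was 0.21 in *RGT2(V539I)*, 0.16 in *OAF1(L63S)* (0.41 without replicate 5), 0.14 in YFA1130 and 0.12 in YFA1131 on the log2 scale. In these strains 37, 33 (35 without replicate 5), 32 and 27 of 37 genes were higher, and *QCR8* was at -0.35 in YFA1130. Batch 1 was 1 library in *RGT2(V539I)*, in YFA1130 and in *OAF1(L63S)* without replicate 5, and 2 libraries otherwise.

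Harvest batch 2 was compared with batch 3, and no respiratory chain gene was called (0.0175% of all genes, 1 gene, was). DESeq2 called none. The median log2 fold change was 0.078 with 31 of 37 above 0, and 8 were higher at an unadjusted p under 0.05. Without surrogate variables 6 genes rose in batch 2 (*COR1*, *QCR2*, *QCR6*, *RIP1*, *COX4* and *COX6*, by 0.20 to 0.26), where 3.29% of all genes were called, and without the 2 libraries *QCR6* did (0.682% of all genes). Of the 84 other pathway genes, *HEM15* (0.24, adjusted p = 0.0429 in edgeR) and *HMG2* (0.48, adjusted p = 0.0239) rose in batch 1 against batches 2 and 3 in the fit with surrogate variables. Neither was called without the 2 libraries (*HEM15* 0.065, adjusted p = 0.542, and *HMG2* -0.022, adjusted p = 0.934, in edgeR). In that fit 10 others of the 84 were called, 7 of them higher in batch 1, where 15.6% of all genes were called. With all libraries, none was called between batches 2 and 3.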

How the data were processed

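Poly(A) RNA from 25 cultures of 5 strains was sequenced. Per the labels, the authors demultiplexed with bcl2fastq 2.20.0.422, trimmed with Trimmomatic 0.38 and counted with kallisto on the sacCer3 transcriptome. The deposited values are estimated counts per gene without normalisation, of which 6.46% were not whole, and they were rounded. Groups came from the labels. The harvest, RNA isolation and library preparation batches came from the study's sample table.

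All libraries were fitted together in edgeR 4.0.16 under R 4.3.3 (TMM, glmQLFit and glmQLFTest) with genotype, 3 harvest, 5 RNA isolation and 2 library preparation batches and 2 surrogate variables (sva 3.50.0) as terms. Genes with an estimated count above 0 in every library were tested (5713 of 6713). Calls were made at a Benjamini-Hochberg FDR of 10% over these genes, and a standard error is the log2 fold change divided by the root of F. The fit takes the spread from all libraries. It was also run on simulated counts. These held no harvest effect and no library at odds with its label, so that run does not bear on the harvest comparisons or the doubted libraries.

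Replicate numbers are RNA isolation batches, each of which held 1 culture of every strain per the study's sample table. This block was part of the fit as in the study's methods. Deviations of same-numbered libraries correlated between -0.41 and 0.50, above 0.1 in 12 of 25 pairs.

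The 37 genes and the lists of other genes were chosen with earlier results of these data known. Values per library or group are given for genes called in a strain comparison, for up to 2 genes per complex called in each harvest comparison and for the isoform pairs. Of the other pathway genes, *HAP4* and the called gene with the largest change in each list are named. Any further gene given with a value was chosen after its values were seen. Upstream windows of 500 bases came from the RefSeq genome and annotation of the same build, in which 6025 of 6713 genes matched by systematic name. Alternatives were RLE factors, DESeq2 1.42.0, other filters, fewer or other batch terms, OD600, fewer libraries and other controls. The fit without both doubted libraries and without surrogate variables was chosen after seeing the data. Plots were made with matplotlib 3.10.9.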

Additional observations from a re-analysis of the deposited data

Results flagged for a closer look

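For each of the 21 genes given by library or group, the 5 libraries of each strain were searched for a value far from the other 4. Of 105 such groups 22 held one, where chance gives about 1 in 20, and genes of one library are not independent. The library labelled *OLE1(FAR)* replicate 2 was high for 9 genes. They were *QCR2* (230 CPM, others 169 to 183), *QCR6* (205, others 134 to 152), *QCR7* (107, others 77.1 to 83.2), *QCR8* (49.1, others 35.4 to 38.0), *CYT1* (98.1, others 53.9 to 65.4), *RIP1* (66.6, others 38.1 to 43.7), *CYC1* (27.9, others 16.3 to 19.6), *ATP4* (199.5, others 151 to 162) and *TIM11* (59.5, others 45.2 to 47.9).

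*OAF1(L63S)* replicate 3, from harvest batch 1, was high for 8 genes. They were *SDH3* (145 CPM, others 102 to 112), *QCR9* (16.1, others 8.32 to 9.84), *RIP1* (70.3, others 44.3 to 50.1), *CYC7* (1.17, others 0.262 to 0.439), *COX4* (81.2, others 56.9 to 61.3), *COX5B* (83.6, others 46.0 to 53.1), *COX7* (16.4, others 8.15 to 10.4) and *TIM11* (71.7, others 46.6 to 53.8). YFA1130 replicate 1, the library of that strain from harvest batch 1, was high for *QCR6* (189.7 CPM, others 134 to 149), *CYT1* (94.6, others 54.1 to 60.1) and *CYC7* (1.02, others 0.252 to 0.463). In YFA1131, replicate 3 was high for *ATP5* (130.04 CPM, others 114 to 117) and replicate 5 for *COX5A* (62.5, others 55.7 to 57.2).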

How the results depend on the processing

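In *RGT2(V539I)* against YFA1131 the number of genes called stayed between 11 and 18 in 10 of 14 alternatives, was 5 with genotype and harvest batch as the only terms, 28 without the 2 libraries in doubt, 26 when surrogate variables were dropped too, and 0 with genotype alone, while the median log2 fold change stayed between 0.20 and 0.30. Leaving out 1 library gave 5 to 18, where 0.262% to 0.91% of all genes were called. For *OAF1(L63S)* against YFA1130 the count was 2 without the 2 libraries, 1 when surrogate variables were dropped too and 7 with both wild types as the control, and for YFA1131 against YFA1130 it was 6 and 1 in the first pair of these fits. For *OLE1(FAR)* against YFA1130 it was 0 in all 14 and 0 to 1 with 1 library left out (0.595% to 1.17% of all genes called). For *OAF1(L63S)* against *OLE1(FAR)* it was 0 without surrogate variables, with genotype and harvest batch only, with genotype alone and with 10 libraries. It was 2 with 4 library preparation batches, 9 with OD600 and 3 without the 2 libraries. With 1 library left out it was 1 to 8, where 1.91% to 4.37% of all genes were called. In harvest batch 1 against batches 2 and 3 the count was 20 without surrogate variables, 15 with genotype and harvest batch only, 23 without the 2 libraries and 29 when surrogate variables were dropped too. The medians of the 37 turned to 0.18, 0.14, 0.27 and 0.25 in these fits, and *QCR8* to 0.20, 0.078, 0.17 and 0.32. That count was 0 without *OAF1(L63S)* replicate 5 or *OLE1(FAR)* replicate 5, and 1 with any other library left out. In these fits 0.42% to 1.73% of all genes were called. Harvest batch 2 against batch 3 gave 6 without surrogate variables and 1 without the 2 libraries. The causes were not tested. A count with no share of all genes, here or above, is not read as a result about the 37 genes.

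Without the replicate block of RNA isolation, 12 genes were called in *RGT2(V539I)* against YFA1131 and 11 in *OAF1(L63S)* against *OLE1(FAR)*. In harvest batch 1 against batches 2 and 3, 3 were called. Leaving out the block changed no other count. The share of all genes called is not given for this fit, so these counts are not read as a result about the respiratory chain genes. Depth limits *CYC7*, whose counts were as low as 2.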
